A study of Mus musculus with 13 samples.

Results

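The PolII peaks of Kap1 knockdown (KD) and control Hepa 1-6 cells were compared, 17877 peaks in all, of the 231368 regions in the 8 peak and region lists of the series. The control list held 5015 peaks and the Kap1 KD list 12862, and every peak of both lists was included. Each peak was assigned to the protein-coding genes that it overlapped by at least 1 bp between the annotated 5′ and 3′ ends, among 22367 genes on mm9. Hepa 1-6 is a murine hepatoma line, and RNA polymerase II (PolII) was precipitated with the CTD4H8 antibody, raised against its C-terminal domain. Both conditions were fixed 5 days after transduction per the treatment labels, although the sample source labels speak of transfection with a plasmid, and per the methods of the study both were selected with puromycin. The Kap1 KD cells carried a hairpin against KAP1. The labels give the control cells a control hairpin, and the methods give them an empty pLKO vector. With 1 library per condition there was no replicate error for any value, and the deposited files gave neither the read depth nor the efficiency of the knockdown, which the study assayed separately by RT-qPCR. Intervals are 95% Wilson intervals, or binomial intervals of a median, and cover counting error over peaks or genes only, which are not replicates.

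PolII transcribes protein-coding genes, and it often pauses shortly downstream of the 5′ end before it is released into the gene body by the kinase complex P-TEFb. A ChIP-seq peak over the 5′ end alone is the usual picture of a gene on which most polymerase sits near its start, while peaks along the whole gene are seen at genes with dense elongating polymerase. KAP1, the product of Trim28, is a corepressor that zinc finger proteins bring to DNA, where it gathers the H3K9 methyltransferase SETDB1, HP1 proteins and the NuRD complex, and it has also been found at active promoters.

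Promoter sequences of 5 genes that stand for the main patterns are shown first. Fn1 encodes fibronectin, Mdm2 the ubiquitin ligase that restrains p53, Btg2 an antiproliferative p53 target, Irf7 a transcription factor of the interferon response and Caprin1 an RNA-binding protein of stress granules. Fn1, Mdm2 and Btg2 had peaks in both lists and more covered bases under Kap1 KD, Irf7 had a peak in the Kap1 KD list only, and Caprin1 had fewer covered bases under Kap1 KD. Each sequence is the 250 bases upstream of the annotated 5′ end on NCBIM37 (mm9), 5′ to 3′ on the minus strand, on which all 5 genes lie. Capitals mark matches on either strand to the CCAAT box or to the GC box, whose letters are GGGCGG. The TATA box, with the letters TATAAA, and an ETS-factor site, with the letters CCGGAAGT, were also searched for and had no match in these 5 sequences. No motif contains another, and overlapping GC boxes were counted separately.
Fn1, chr1:71699775-71700024: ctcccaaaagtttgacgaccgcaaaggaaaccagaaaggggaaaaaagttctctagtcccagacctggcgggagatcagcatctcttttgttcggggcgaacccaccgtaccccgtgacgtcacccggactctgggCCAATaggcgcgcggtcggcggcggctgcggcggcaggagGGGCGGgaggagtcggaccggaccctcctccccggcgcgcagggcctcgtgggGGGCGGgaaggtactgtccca
Mdm2, chr10:117147815-117148064: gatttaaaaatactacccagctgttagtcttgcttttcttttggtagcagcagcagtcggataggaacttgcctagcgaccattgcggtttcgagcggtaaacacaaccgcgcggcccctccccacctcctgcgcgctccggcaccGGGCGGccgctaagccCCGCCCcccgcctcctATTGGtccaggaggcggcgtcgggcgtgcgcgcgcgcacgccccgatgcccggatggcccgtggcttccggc
Btg2, chr1:135975698-135975947: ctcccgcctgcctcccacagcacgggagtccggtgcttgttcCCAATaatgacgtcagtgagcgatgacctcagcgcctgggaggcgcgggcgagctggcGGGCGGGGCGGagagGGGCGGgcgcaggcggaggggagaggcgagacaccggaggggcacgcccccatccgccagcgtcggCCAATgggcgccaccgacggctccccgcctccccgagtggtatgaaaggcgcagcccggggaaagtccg
Irf7, chr7:148452381-148452630: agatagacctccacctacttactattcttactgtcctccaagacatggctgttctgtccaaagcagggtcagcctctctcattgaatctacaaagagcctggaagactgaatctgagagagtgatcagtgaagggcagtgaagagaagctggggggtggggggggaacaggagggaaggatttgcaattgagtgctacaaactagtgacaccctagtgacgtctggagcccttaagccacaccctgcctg
Caprin1, chr2:103637807-103638056: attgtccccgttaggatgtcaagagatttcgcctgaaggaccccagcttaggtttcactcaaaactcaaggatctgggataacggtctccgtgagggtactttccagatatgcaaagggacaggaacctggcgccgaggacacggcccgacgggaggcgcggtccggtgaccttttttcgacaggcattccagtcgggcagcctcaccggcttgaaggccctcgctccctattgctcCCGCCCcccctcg
Fn1 and Mdm2 each had 1 CCAAT box and 2 GC boxes, Btg2 had 2 and 3, Caprin1 had 1 GC box and Irf7 had no match. All 250 bases lay under a peak of each list at Fn1, Mdm2 and Btg2. At Caprin1 128 bases lay under a control peak and 152 under a Kap1 KD peak, and at Irf7 32 bases lay under a Kap1 KD peak.

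Most control peaks lay where the Kap1 KD list also had a peak. Of the control peaks, 4320 (86.1%, interval 85.2 to 87.1%) overlapped a Kap1 KD peak by at least 1 bp, while 4289 peaks of the Kap1 KD list (33.3%, 32.5 to 34.2%) had a control counterpart. The 8573 peaks found in the Kap1 KD list only were narrow, with a median width of 612 bp (600 to 625), against 1445 bp (1390 to 1490) for shared peaks of the same list. The 695 control-only peaks had a median of 500 bp (472 to 537) and the shared control peaks 1003 bp (972 to 1033). Unshared peaks were thus the narrower class in each list, as the plot of widths shows. Peak numbers run along the genome and skip values, 31.4% of the numbers in the control list and 22.6% in the Kap1 KD list. The gaps were read as calls removed by an unstated filter, which the sources used here do not describe. At 6059 (70.7%) of the Kap1 KD-only peaks and 443 (63.7%) of the control-only peaks no number was missing from the other list, so that on this reading no removed call could lie there. When only the 5015 Kap1 KD peaks of highest score were kept, 63.2% of control and 61.5% of Kap1 KD peaks were shared, so the shares depended strongly on the lengths of the lists.

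**Figure D1:**
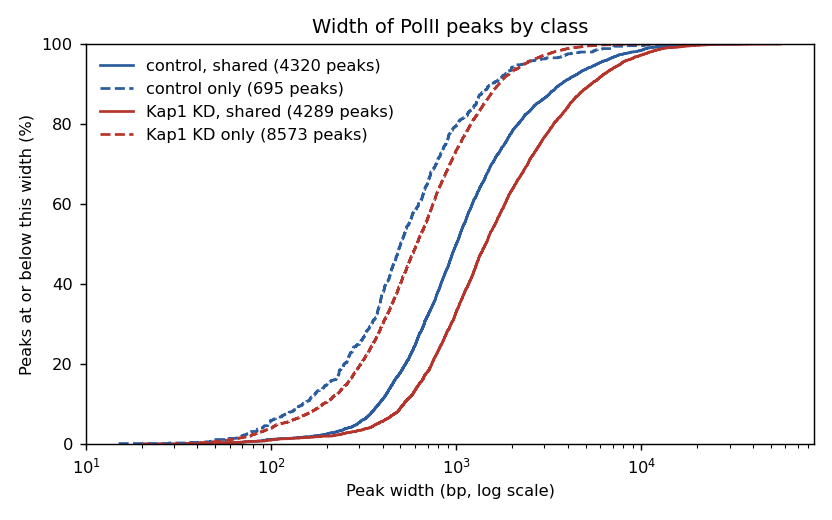
Cumulative percentage of PolII peaks (y axis) against peak width in bp on a log scale (x axis), for shared peaks (solid lines) and peaks of 1 list only (dashed lines) in control (blue) and Kap1 KD (red) cells. The shared Kap1 KD peaks lie farthest to the right, with a median of 1445 bp, and the unshared peaks of both lists farthest to the left, with medians of 500 and 612 bp.

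Where a control peak and a Kap1 KD peak overlapped each other and no further peak, the Kap1 KD peak was usually the wider of the pair. Of 3917 such pairs, the Kap1 KD peak was wider in 3036 (77.5%, 76.2 to 78.8%) and the control peak in 875, and the median ratio of Kap1 KD to control width was 1.35 (1.33 to 1.37), with quartiles of 1.03 and 1.99. The median widths were 940 bp in the control and 1363 bp under Kap1 KD. The Kap1 KD peak was wider in 84.8% of the pairs with the narrowest control peaks and in 73.7% of those with the widest, each class being 1 of 3 of nearly equal size. Sorted by the Kap1 KD width instead, the share was 58.5% in the narrowest class and 90.3% in the widest. Pairs with a KAP1 peak of untransduced cells had a median ratio of 1.32 (1.29 to 1.36, n = 1782) and pairs without had 1.37 (1.34 to 1.42, n = 2135). The smallest distance between neighbouring peaks also differed between the lists, 501 bp in the control and 269 bp under Kap1 KD. With the peaks of each list merged within 1 kb, the Kap1 KD peak was wider in 77.95% of pairs, with a median ratio of 1.355. Beyond this, the part of the spacing in the widths, and that of read depth, was not tested.

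The added width lay on both sides of gene starts and was larger on the transcribed side. Among 1623 pairs that covered the 5′ end of a single protein-coding gene, the edge inside the gene lay a median of 524 bp from the 5′ end in the control and 734 bp under Kap1 KD. It was farther downstream under Kap1 KD in 1191 pairs (73.4%, 71.2 to 75.5%), with a median difference of 165 bp. The upstream edge lay at 337 bp in the control and 447 bp under Kap1 KD and was farther out in 1093 pairs (67.3%, 65.0 to 69.6%), with a median difference of 86.0 bp. The downstream difference exceeded the upstream difference in 946 pairs (58.3%, 55.9 to 60.7%) and was below it in 674.

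Kap1 KD-only peaks were less often at promoters than shared ones. A promoter was taken as 250 bp to each side of a 5′ end. Promoters held 58.5% (57.0 to 59.9%) of the shared Kap1 KD peaks and 23.6% (22.7 to 24.5%) of the Kap1 KD-only peaks. The interior of protein-coding genes held 17.5% and 34.4% of these classes, and sites outside any annotated gene held 12.7% and 34.7%. The control peaks showed the same order, with 56.2% of shared peaks and 17.8% (15.2 to 20.9%) of control-only peaks at promoters. Peaks over a 3′ end were the widest class in each list, with medians of 2310 bp in the control and 2337 bp under Kap1 KD.

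A control peak lay over 3795 protein-coding genes (17.0%) and a Kap1 KD peak over 6701 (30.0%). Peaks of both lists lay over 3612 genes (16.1%), a Kap1 KD peak only over 3089 (13.8%) and a control peak only over 183 (0.818%). In 2451 (79.4%) of the Kap1 KD-only genes and 151 (82.5%) of the control-only genes the other list had no missing number over the gene. With the Kap1 KD list reduced to 5015 peaks, 864 genes were in that list only and 1027 in the control list only, so the direction of this imbalance reversed with list length. The genes in both lists had a median length of 20.2 kb, Kap1 KD-only genes 24.7 kb, control-only genes 27.01 kb and genes with no peak 12.5 kb.

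The promoters of the 3 classes of genes with a peak resembled each other in base composition more than they resembled those without. Over the 300 bases from 250 upstream to 50 downstream of the 5′ end, the median GC content was 60.7% for genes in both lists, 59.7% for Kap1 KD-only genes, 60.0% for control-only genes and 52.3% for genes with no peak. The median ratio of observed to expected CpG was 0.801, 0.745, 0.741 and 0.375 in the same order, where a high value is typical of CpG islands. A GC box was present on either strand in 62.8% (61.2 to 64.4%) of promoters in both lists, 59.1% (57.4 to 60.8%) of Kap1 KD-only promoters and 35.6% of those with no peak, against 43.4% of all 22362 promoters with a full sequence. TATAAA was present in 8.001%, 7.32% and 16.0% of these classes, against 13.4% of all promoters. A CCAAT box was present in 35.6%, 36.5% and 38.7%, against 37.9% of all, and CCGGAAGT in 9.63%, 7.32% and 2.97%, against 4.70% of all.

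PolII peaks spanned more of the gene under Kap1 KD at most genes that both lists covered. Of 3430 such genes of at least 2 kb, 2649 (77.2%, 75.8 to 78.6%) had more bases under Kap1 KD peaks, 663 had fewer and 118 had the same number. This share stood at the background of 77.2%, being itself the count over all such genes. At the median, a gene had 712 bp under control peaks and 1218 bp under Kap1 KD peaks, or 3.13% and 5.44% of its length, and the median difference was 342 bp (quartiles 26.0 and 1200). The share was 77.5% among 2760 genes with no missing number in either list, and 76.9% without chromosomes 15 and X. It was 71.0% for genes of 2 to 10 kb, 78.4% for 10 to 50 kb and 81.4% for longer genes. Genes with KAP1 at the promoter in untransduced cells had more bases under Kap1 KD at a share of 75.8% (73.6 to 77.9%, n = 1567), and genes lacking it at 78.4% (76.5 to 80.2%, n = 1863), so the intervals overlapped. In these classes 296 and 367 genes had fewer bases, and 83 and 35 had the same number. Of the latter, 83 and 32 were fully covered in both lists and could not gain.

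Peaks over both promoter and body were more common under Kap1 KD, and peaks over the promoter alone less so. Peaks confined to the promoter and first 1 kb were seen at 1613 (47.0%) of these genes in the control, and peaks over promoter and body at 27.9%. Under Kap1 KD the shares were 33.3% and 48.5%. A change from promoter alone in the control to promoter and body under Kap1 KD was found at 534 genes and the opposite change at 56. A peak lay over the 3′ end of 21.3% of the genes in the control and 28.3% under Kap1 KD. Genes with a Kap1 KD peak only were mostly covered at the promoter alone (51.1%), and 15.8% were covered at promoter and body. Among 2192 genes whose 5′ end was covered in both lists, the unbroken covered run from the 5′ end had a median of 532 bp with control peaks and 760 bp with Kap1 KD peaks, and it was longer under Kap1 KD in 1515 (69.1%, 67.1 to 71.0%). The run reached 5 kb in 57 genes in the control and 96 under Kap1 KD. Across 2543 genes of at least 10 kb, the position 0.1 kb into the gene was covered by a control peak in 66.0% of genes and by a Kap1 KD peak in 74.95%, and the position at 1.7 kb in 7.20% and 14.6%.

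**Figure D2:**
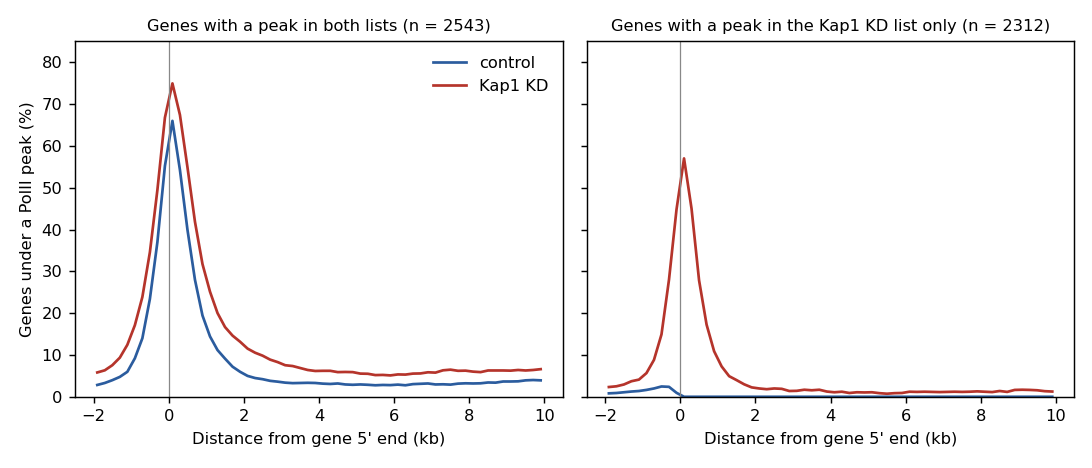
Percentage of genes of at least 10 kb with a PolII peak over each position (y axis) against the distance from the gene 5′ end in kb (x axis), for control (blue) and Kap1 KD (red) peaks, in genes with a peak in both lists (left) and in the Kap1 KD list only (right). The Kap1 KD curve lies above the control curve throughout the left panel, at 74.95% against 66.0% at 0.1 kb and 5.51% against 2.87% at 5.3 kb, and in the right panel the control is at 0 inside the genes because of how they were selected.

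Among genes off chromosome 15, the largest added span under Kap1 KD was that of Fn1 (chromosome 1, 71632094 to 71699774). In the control, 7 peaks covered 25867 of its 67681 bases, and under Kap1 KD 3 peaks covered 65596 bases, 38.2% and 96.9% of the gene. All of the control-covered bases were also covered under Kap1 KD, and the peak over its 3′ end was 57115 bp wide, the widest of the list. Shb, which encodes a signalling adaptor, had 7858 bases covered in the control and 35896 under Kap1 KD, again with every control-covered base included. Chka (choline kinase alpha) had 37606 and 41555 bases and Axin2, a feedback inhibitor and target of Wnt signalling, 30435 and 29995. Chka and Axin2 were thus covered over nearly their whole length in both conditions. Neither list lacked a number over these 4 genes.

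The other genes with the largest added span lay on chromosome 15. Asap1, an Arf GTPase-activating protein gene, had 15391 covered bases in the control and 92615 under Kap1 KD, of which 2363 were shared. Trio, a guanine nucleotide exchange factor gene, had 5788 and 77025 with 4086 shared, and Nsmce2, a SUMO ligase gene, 3351 and 58500 with 2793 shared. Myo10, an unconventional myosin gene, had nearly equal totals of 54469 and 54768 bases, of which only 15647 were covered in both. At Trio and Nsmce2 most of the control-covered bases were thus also covered under Kap1 KD, while at Asap1 and Myo10 most were not. The promoters of Asap1 and Nsmce2 had a peak in the control list only, that of Trio in both lists and that of Myo10 in neither. Chromosome 15 held 9.85% of the control and 11.6% of the Kap1 KD peaks, and fewer of its peaks were at promoters in both libraries, 32.8% (28.80 to 37.05%) against 52.9% on the other chromosomes for control peaks and 16.5% (14.7 to 18.4%) against 37.7% for Kap1 KD peaks. Its peaks were shared less often, at 69.4% in the control and 23.4% under Kap1 KD. The peak numbering lacked 6 control and 17 Kap1 KD numbers over Asap1, 12 and 20 over Nsmce2, and 5 and 2 over Myo10, so removed calls may have lain at these genes. DNA copy number was not measured here, and its part in these values was not tested.

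Genes with fewer covered bases under Kap1 KD were less common, and their largest differences were smaller. Sqle, which encodes squalene epoxidase of cholesterol synthesis, had 8650 covered bases in control cells and 3089 in Kap1 KD cells, and the mRNA-binding protein gene Serbp1 had 11360 and 7172. Larp4, which encodes an RNA-binding protein of the La-related family, had 15485 and 11663. Sqle and Larp4 lie on chromosome 15. The Kap1 KD list lacked 1 number over Sqle, 2 over Larp4 and none over Serbp1. Caprin1 had 5807 and 2142 bases and 4833442J19Rik 3627 and 654, with none missing in either list. At Caprin1 the 5′ peak differed little, with 2092 bp in the control and 2051 bp under Kap1 KD. The difference lay at the 3′ end, where the control peak was 6222 bp wide and the Kap1 KD peak 2237 bp. Both of these peaks also overlapped the promoter of another protein-coding gene, so the difference cannot be assigned to Caprin1 alone.

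Among the genes with a Kap1 KD peak only, Frmd4b had the most covered bases, at 12905, followed by Myh9 (non-muscle myosin heavy chain IIA) with 12038 in 5 peaks, Hnrnpa3 (an hnRNP splicing protein) with 9829, Hbegf (an EGF-family growth factor) with 9119 and Nedd4l (a ubiquitin ligase) with 8377. The control numbering lacked 1 number over Hnrnpa3 and none over the other 4, of which Myh9 lies on chromosome 15. The 5 control-only genes with the most covered bases were Tlcd2 (6213), the translation elongation factor gene Eef2 (5877), the matrix protein gene Matn2 (4515), Fbxl14 (4219) and Ormdl2 (4175). At each of these 5 the Kap1 KD list had at least 1 missing number, so a removed call may have lain there. Matn2, on chromosome 15, had no peak at its own promoter. Its single control peak, 12555 bp wide, ran past its 3′ end and overlapped the promoter of another protein-coding gene, so it may not belong to Matn2. Where no Kap1 KD number was missing, the most covered control-only genes were Ppp2r2d, a phosphatase regulatory subunit gene with 1571 bases, the DNA ligase gene Lig3 with 1402, 1110034G24Rik with 1320, Sla2 with 1309 and the inositol transporter gene Slc2a13 with 1281. These were short covered stretches next to those of the Kap1 KD-only genes.

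Trim28 itself, the gene for KAP1, had 703 of its 6884 bases under control peaks and 1143 under Kap1 KD peaks, which does not check the knockdown because hairpins act on transcripts. The gene lists that follow are to be read against all protein-coding genes, of which 17.0% had a control peak, 30.0% a Kap1 KD peak and 13.8% a Kap1 KD peak only, and of which 75.1% of those in both lists had more covered bases under Kap1 KD. With both lists at 5015 peaks, 3.86% of all protein-coding genes were in the Kap1 KD list only and 4.59% in the control list only. The members named from a list are mostly its 4 with the most covered bases in either library, so they are its largest values and not typical ones. Among partners of KAP1 and heterochromatin proteins, 11 of 28 genes (39.3%) had a control peak and 19 (67.9%) a Kap1 KD peak, 8 of them (28.6%) in the Kap1 KD list only. With both lists at 5015 peaks, 1 gene was in the Kap1 KD list only and 1 in the control list only. Of the 11 genes in both deposited lists, 9 (81.8%) had more and 2 fewer covered bases under Kap1 KD. Setdb1 had 792 and 3511 covered bases, with 1 control number missing. The NuRD component genes Chd4, Mbd3 and Chd3 had 1509 and 6147, 2179 and 2483, and 0 and 3050. Among pausing and elongation factors, 16 of 28 had a peak in both lists and 4 (14.3%, close to all genes) in the Kap1 KD list only, against 1 in the Kap1 KD list only and 2 in the control list only with lists of equal length. Of the 16, 14 (87.5%) had more covered bases. Ccnt1 and Ccnt2, the cyclins of P-TEFb, had 9121 and 21347, and 4937 and 8274. Ccnt1 lies on chromosome 15, and 1 Kap1 KD number was missing over it. Mepce, which caps and stabilises the 7SK RNA that holds P-TEFb inactive, had 2339 and 4810. Of 12 genes for PolII subunits, 4 had a peak in both lists and 2 in the Kap1 KD list only, against 0 in the Kap1 KD list only and 1 in the control list only with lists of equal length. Polr2a, the largest subunit, had 883 and 1440 covered bases, and Polr2l was covered over its whole length in each.

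A list of 24 known targets of p53, the tumour suppressor that responds to DNA damage, was examined in the same way. Of these genes, 13 had a peak in both lists, 7 in the Kap1 KD list only and 4 in neither. Of the 13, 12 had more covered bases under Kap1 KD, 0 had fewer and Plk2 was fully covered in each list, a share of 92.3% against 75.1% over all genes in both lists. The median covered share of the 13 was 12.7% in the control and 33.8% under Kap1 KD, against 3.50% and 6.09% over all genes in both lists. Covered share fell with gene length, with medians of 15.8% and 28.7% at genes of 2 to 10 kb in both lists. Several of the 13 are that short, such as Btg2 (3951 bp) and Bax (5204 bp), and length was not matched here. Mdm2 had 3399 and 17650 covered bases, 15.5% and 80.7% of the gene. Btg2 had 206 and 3951, so that its start alone was covered in the control and the whole gene under Kap1 KD. Aen, an apoptosis-enhancing nuclease gene, had 0 in the control and 3737 under Kap1 KD. Further members were named only after their values were seen. Bax, a pro-apoptotic BCL2 family gene, had 461 and 3195 bases, the p53 target Phlda3 970 and 3018, the cyclin-dependent kinase inhibitor gene Cdkn1a 1236 and 2963, with 2 numbers missing from each list, and Trp53 itself 1925 and 3008. Ddit4, which encodes an inhibitor of mTOR signalling, had 0 and 2096. With the Kap1 KD list reduced to 5015 peaks, 11 of 13 genes had more covered bases and 1 had fewer, and 3 genes were in the Kap1 KD list only. The 10 members in both lists with no missing number all had more.

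**Figure D3:**
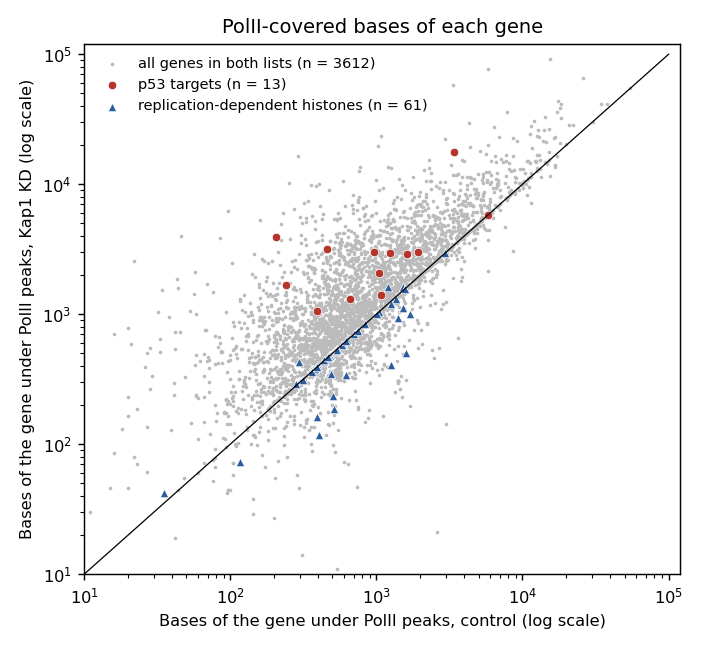
Bases under PolII peaks in the control (x axis) and under Kap1 KD (y axis), both on log scales, for each of 3612 protein-coding genes with a peak in both lists (grey), with p53 targets (red circles, n = 13) and replication-dependent histone genes (blue triangles, n = 61) marked. The line marks equal values, 12 p53 targets lie above it, and the histone genes lie on it in 39 cases, below it in 16 and above it in 6.

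Replication-dependent histone genes, most of which are short and intronless and which are transcribed at high rates in S phase, were covered over their whole length in most cases. Control peaks lay over 61 of 67 and Kap1 KD peaks over 62, and of the 61 in both, 39 had the same covered bases, 16 had fewer under Kap1 KD and 6 had more. Hist1h2bc had 1709 control-covered bases and 998 under Kap1 KD peaks, and Hist1h2be 1195 and 1620. The annotation gives these 2 genes lengths of 8290 and 37383 bp, so they are not typical of the list. The median covered share of the 61 was 100% in both lists, so a wider peak could not add bases at most of them, and the 39 equal values say nothing of whether PolII differed. Of 72 cytosolic ribosomal protein genes in both lists, 41 had the same number of covered bases, 28 had more under Kap1 KD and 3 had fewer, and the median covered share was again 100%. Rps15a, of the small ribosomal subunit, had 6054 and 11809. Of 24 translation factor genes in both lists, 17 (70.8%, against 75.1% of all genes) had more covered bases and 3 fewer. Eif4b, which aids mRNA unwinding, had 11626 and 19144, and Eif3h, a subunit of initiation factor eIF3, had 291 and 16475. Both genes lie on chromosome 15, and 1 control number was missing over Eif3h, so a removed call may have lain there.

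Of 28 immediate early genes, which are induced within minutes by growth factors and stress, 15 had a peak in both lists, 3 in the Kap1 KD list only and 1 in the control list only. With lists of equal length, 0 were in the Kap1 KD list only and 1 in the control list only. Of the 15, 9 had the same covered bases, 5 had more under Kap1 KD and 1 had fewer. Ier2, Ier5 and Junb were covered from end to end in both libraries, as were the AP-1 gene Fosl1 and the zinc finger gene Klf6. At Junb the peak was 4706 bp wide in the control and 7734 bp under Kap1 KD, and at Ier5 3768 and 5576 bp, so their peaks differed outside the gene while the covered share of the gene could not. Ier2 had peaks of 3420 and 3477 bp. The heat shock genes Hspa1a and Hspa1b and the early growth response genes Egr2 and Egr3 had no peak in either list, though 1 control number was missing over Egr3, and Egr1, chosen after its values were seen, had 84 bases in the control only. Actg1 (gamma-actin) had 0 bases in the control, where 1 number was missing, and all 2853 bases under Kap1 KD. Tbp, the TATA-binding protein gene, had 2669 and 545, with 3 control numbers missing. Its own promoter had no peak in either list. Most of its peaks overlapped the promoter or 3′ end of another protein-coding gene, so these bases cannot be assigned to Tbp alone.

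Of 30 interferon response genes, 1 had a control peak and 8 a Kap1 KD peak, 26.7% (14.2 to 44.5%) against 30.0% of all genes, and 22 had none. Irf7 had 0 and 2828 covered bases. The deubiquitinase gene Usp18 had 0 and 1571, with 4 control numbers missing, the RNA sensor gene Ddx58 had 0 and 869, and Trim25, a ligase that acts on that sensor, 0 and 798. With 5015 Kap1 KD peaks, 3 genes of the list (10.0%, against 3.86% of all genes) were in the Kap1 KD list only and 1 (3.33%, against 4.59%) in the control list only. Oxidative phosphorylation genes had a control peak in 27 of 87 (31.0%, against 17.0% of all genes) and a Kap1 KD peak in 54 (62.1%, against 30.0%). In the Kap1 KD list only were 28 (32.2%, against 13.8%). With the reduced list 5 (5.75%, against 3.86% of all genes) were in the Kap1 KD list only. Then 10 (11.5%, against 4.59% of all genes) were in the control list only. Of the 365 genes named Zfp, the family that includes DNA-binding partners of KAP1, 73 had a peak in both lists, 68 (18.6%, against 13.8% of all genes) in the Kap1 KD list only and 3 in the control list only. With lists of equal length the order reversed, as it did over all genes. Then 19 (5.2%, against 3.86% of all genes) were in the Kap1 KD list only and 27 (7.4%, against 4.59%) in the control list only. Of the 73, 53 (72.6%, near the 75.1% of all genes) had more covered bases under Kap1 KD and 19 fewer. Of 23 hnRNP and SR splicing protein genes in both lists, 14 (60.9%) had more and 6 fewer, and Hnrnpu was covered at 100% and 97.6%. Olfactory receptor genes, which are expressed chiefly in the olfactory epithelium, had a control peak in 1 of 1087 and a Kap1 KD peak in 8.

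**Figure D4:**
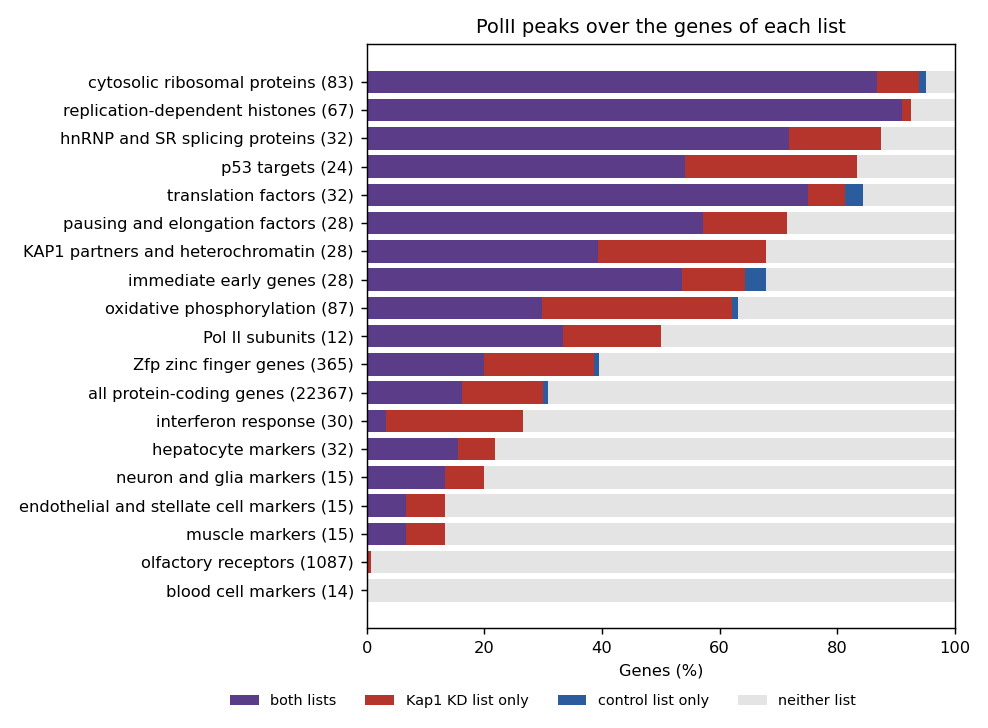
Percentage of the genes in each list (x axis, number of genes in parentheses) with a PolII peak in both lists, in the Kap1 KD list only, in the control list only or in neither, sorted by the share with a Kap1 KD peak. Ribosomal protein and histone genes had peaks in both lists in most cases, and the shares with a Kap1 KD peak only were 32.2% for oxidative phosphorylation, 29.2% for p53 target, 28.6% for KAP1 partner and 23.3% for interferon response genes, against 13.8% of all genes. These shares depend on list length, and with 5015 peaks in each list 5 (5.75%), 3 (12.5%), 1 (3.57%) and 3 (10.0%) genes of these lists had a Kap1 KD peak only, against 3.86% of all genes.

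Hepatocyte markers had PolII peaks at shares near or below those of all genes. Of 32 markers, 5 (15.6%, against 17.0%) had a control peak and 7 (21.9%, against 30.0%) a Kap1 KD peak, and 11 had H3K27ac at the promoter in untransduced cells. Foxa2 and Cebpb, liver transcription factor genes, were fully covered in both, and the apolipoprotein gene Apoe had 2677 and 3058 covered bases. The albumin gene Alb, the alpha-fetoprotein gene Afp and the nuclear receptor gene Hnf4a had none, with no number missing. No marker of neurons and glia, blood, muscle, or endothelial and stellate cells had a peak over its promoter in either list. Peaks inside these genes were found in 3, 0, 2 and 2 of 15, 14, 15 and 15 genes under Kap1 KD. A ChIP peak does not measure mRNA, so the level of these transcripts is not known from the lists.

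Kap1 KD-only peaks carried marks of active chromatin less often than shared peaks. The marks and KAP1 were measured in untransduced cells under standard culture, 1 library each. H3K27ac, a mark of active promoters and enhancers, overlapped 73.4% (72.1 to 74.7%) of the shared Kap1 KD peaks, 40.4% (39.3 to 41.4%) of the Kap1 KD-only peaks and 21.2% (18.3 to 24.3%) of the control-only peaks. H3K4me1, found at enhancers and promoter flanks, overlapped 59.6%, 39.3% and 32.8%. H3K9me3, a mark of silenced chromatin, showed the opposite order, with 4.34% (3.77 to 4.99%), 20.4% (19.6 to 21.3%) and 26.8% (23.6 to 30.2%). Wider peaks overlap a region more readily, and the shared peaks were the wider class. Among peaks at promoters H3K9me3 overlapped 1.12% of shared and 2.33% of Kap1 KD-only peaks, so the unshared peaks with H3K9me3 lay mostly elsewhere. By gene, H3K27ac lay at the promoter of 54.8% (53.2 to 56.4%) of genes in both lists, 38.1% (36.4 to 39.8%) of Kap1 KD-only genes, 30.6% (24.4 to 37.6%) of control-only genes and 8.09% of genes with no peak. KAP1 lay at 46.1%, 26.1%, 22.4% and 6.53% of these promoters. The Kap1 KD-only genes therefore carried KAP1 and H3K27ac less often than genes in both lists and more often than genes with no peak.

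**Figure D5:**
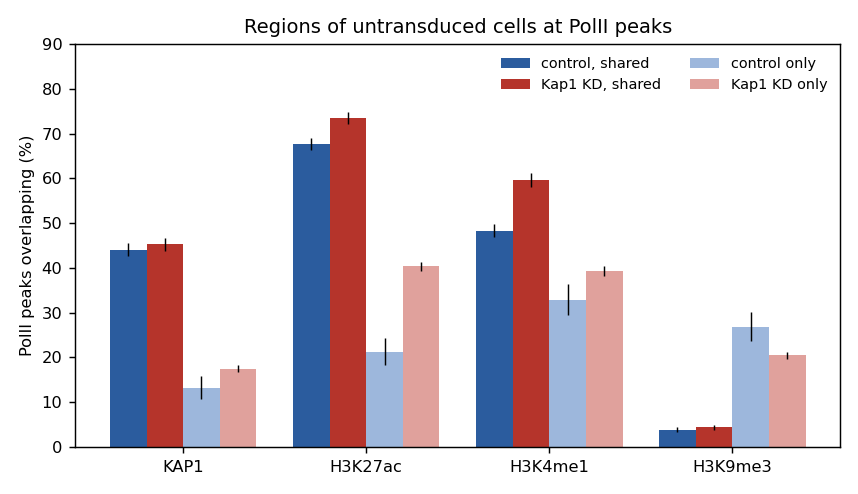
Percentage of PolII peaks that overlap a KAP1 peak or a region of H3K27ac, H3K4me1 or H3K9me3 of untransduced cells (y axis), for shared and unshared peaks of each list. Error bars are 95% Wilson intervals over peaks, and H3K9me3 is the only one of the 4 that overlapped unshared peaks (26.8% and 20.4%) more often than shared peaks (3.84% and 4.34%).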

How the data were processed

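PolII was measured in 1 control and 1 Kap1 KD library, grouped by the labels. Reads were mapped by the authors with Bowtie to mm9 (Bowtie1 for the peak files), and peaks were called with MACS against total input, both per the methods of the study. Options, thresholds and the MACS version are not given in the sources used here. The deposited lists hold positions and, for PolII and KAP1, a score of unstated meaning, which was used only to rank peaks within a list. Peak numbers skip values, which was read as calls having been removed before deposit. No reads were counted, so depth is unknown. Coordinates match NCBIM37, and genes came from GENCODE M1. Overlaps, covered bases and Wilson intervals were computed in Python 3.11.15 with numpy 2.4.6 and scipy 1.17.1 and checked on simulated intervals. With 1 library per condition no test was run. A number counted as missing at a gene or peak when it was absent between the nearest deposited peaks lying wholly to either side. Alternatives changed the overlap, list length, merging, promoter width and gene set. Named genes were those the study names, the 5 with the most shared, added or lost covered bases, the 5 most covered of each unshared class, with and without missing numbers, and for each gene list the 4 members with the most covered bases in either library. The members and gene lists were chosen with earlier results of these data known. PolIII lists and the 5 inputs were not used here, and a few named genes are not reported here.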

Additional observations from a re-analysis of the deposited data

How the results depend on the processing

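No paired analysis was possible because each condition has 1 library, and leaving out a replicate was impossible for the same reason. When both lists had 5015 peaks, by keeping those of highest score under Kap1 KD, 63.2% of control and 61.5% of Kap1 KD peaks were shared, 84.8% of pairs were wider under Kap1 KD with a median ratio of 1.46, 864 genes were in the Kap1 KD list only and 1027 in the control list only, the median covered share was 4.39% for control and 7.41% for Kap1 KD peaks, and 46.8% of Kap1 KD peaks were at promoters. With an overlap of at least 50% of the shorter peak, 84.2% and 32.3% were shared. In the upper 50% of each list by score, 91.8% of control and 35.5% of Kap1 KD peaks were shared and the median ratio was 1.26. With genes of at least 10 kb the covered shares were 1.96% and 3.28%, with more bases in 79.4% of genes. Without overlapping genes the control share was 2.93%. With promoters of 1 kb to each side, 54.0% of control and 37.6% of Kap1 KD peaks were at promoters. Among genes with no missing number, an alternative added after seeing the data, the covered shares were 3.45% and 5.90%. The other 39 of 61 values stayed within the interval or within 1.5 times the main count, those without chromosomes 15 and X, also added later, included. In each alternative run, more pairs were wider and more genes had more covered bases under Kap1 KD. Without read counts, differences in depth and in PolII cannot be told apart.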

Other observations

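Genes of other types were counted where they lie outside protein-coding genes. Of 523 lincRNA genes, 76 (14.5%, against 16.1% of protein-coding genes) had a PolII peak in both lists, 68 (13.0%, against 13.8%) in the Kap1 KD list only and 6 in the control list only. With lists of equal length, an alternative added after seeing the data, 28 were in the Kap1 KD list only and 21 in the control list only. Of 974 snoRNA genes the counts were 51, 3 and 0, and of 912 snRNA genes, several of which PolII transcribes for the spliceosome, 30, 7 and 0. Of 793 miRNA genes the counts were 15, 14 and 1, and of 3812 pseudogenes 28, 81 and 9. In the same order, the Kap1 KD-only shares were 0.31%, 0.77%, 1.8% and 2.1%, against 13.8% of protein-coding genes. With lists of equal length, 2 snoRNA, 5 snRNA, 9 miRNA genes and 20 pseudogenes were in the Kap1 KD list only, and 0, 4, 3 and 19 in the control list only. Over all protein-coding genes these shares were 3.86% and 4.59%. The nuclear RNAs Neat1 and Malat1, on chromosome 19, were covered over their whole length in both lists. Tug1 had 1818 covered bases in the control and 3080 under Kap1 KD. Gm11884 had 558 and 7355, with 1 Kap1 KD number missing, and Gm11613 had 0 and 3157. Pvt1, on chromosome 15, had 45784 and 34017 covered bases, with 18 and 10 numbers missing. These genes were chosen after their values were seen.

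The X chromosome differed from the rest. Its 68 control and 268 Kap1 KD peaks were shared in 51.5% and 12.3% of cases, and its numbering lacked 464 and 875 numbers, more than there were peaks left. Chromosome 12 had 47 and 141 peaks over 704 protein-coding genes, while chromosome 19, with 724 genes, had 279 and 558.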
